A study of Macaca mulatta with 6 samples.

Results

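PYGL and PPIP5K2 were each read by several probe sets on the rhesus macaque expression array, and the probe sets of one gene gave different answers about the liver X receptor (LXR) agonist T0901317. All probe sets that the platform annotation assigns to either symbol were taken. These are 2 of the 14132 genes with a name on the array and 10 of its 52766 tested probe sets, 6 for PYGL and 4 for PPIP5K2. A probe set is a group of short probes summarised to 1 value per array. The genes were chosen because some of their probe sets moved with treatment and others did not, so the treatment changes of the 10 are described below without a test.

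The study compared 3 arrays of luteal cells treated with 1 µM T0901317, a synthetic LXR agonist, against 3 arrays of cells given 0.1% DMSO as vehicle. Both groups were Macaca mulatta luteal cells dispersed from corpora lutea, the progesterone-secreting gland of the ovary, at 12 days after the LH surge. Exposure lasted 24 h from plating, in serum-free culture on fibronectin. The replicates, numbered 1 to 3 in each group, are called paired and biological in the study's design. The age and identity of the animals, and whether both cultures of a pair came from 1 animal, are not given in the sources used here, so a p-value measures only the spread between these samples.

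LXRs are nuclear receptors that respond to oxidised cholesterol and switch on genes of cholesterol efflux and fatty acid synthesis. PYGL encodes the liver form of glycogen phosphorylase, the enzyme that releases glucose 1-phosphate from stored glycogen. PPIP5K2 encodes a kinase of inositol pyrophosphates, small signalling molecules with energy-rich phosphate groups that are tied to cellular phosphate and energy balance.

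All values are deposited levels on a log2 scale from RMA, a method that corrects background, brings arrays to a common distribution and summarises each probe set. Column medians were 5.54 to 5.71 and the share of probe sets brighter than 4.63, a dim reference set by the Bacillus controls, was 68.8% to 74.1%. All 10 members were above that reference on all 6 arrays. The level of one probe set cannot be set against that of another, because their probes differ. STAR, which carries cholesterol into mitochondria and marks steroid-producing cells, had 10.70, 11.45 and 10.58 with T0901317 and 10.97, 11.48 and 10.54 with DMSO in replicates 1, 2 and 3. CYP11A1 and LHCGR were not analysed here. In cultures of mixed cells, fewer cells of a type and less RNA per cell cannot be told apart.

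The 2 rising PYGL probe sets moved in parallel. Probe set Mmu.6201.1.S1_at, which represents the gene because its mean over the arrays is the highest, had 11.06, 10.32 and 9.89 in T0901317 replicates 1, 2 and 3, against 10.35, 9.01 and 8.04 in the DMSO replicates. Every treated array was above the vehicle array of its own pair, yet the groups overlapped, since DMSO replicate 1 was higher than T0901317 replicates 2 and 3. The means were 10.42 ± 0.59 with T0901317 and 9.13 ± 1.16 with DMSO (SD, n = 3 each).

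The differences of Mmu.6201.1.S1_at, T0901317 minus DMSO, were 0.72, 1.31 and 1.85 in pairs 1, 2 and 3, and averaged 1.29 ± 0.57 (SD of the 3 pair differences; limma's SE, which pools spread over probe sets, was 0.16), or 2.45-fold. The pair with the highest vehicle level had the smallest difference and the pair with the lowest vehicle level the largest.

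MmugDNA.24505.1.S1_at repeated that order for PYGL. Its levels were 8.79, 8.67 and 7.74 with T0901317 and 8.19, 7.61 and 6.05 with DMSO in replicates 1, 2 and 3. Again the groups overlapped through replicate 1 of the vehicle and replicate 3 of the treatment. The pair differences were 0.60, 1.06 and 1.69, with a mean of 1.12 ± 0.55 (SD, n = 3 pairs; 2.17-fold). Over the 6 arrays the levels of both rising probe sets had a Pearson r of 0.95, a description of 6 points that include the treatment difference.

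The other 4 PYGL probe sets did not follow. MmuSTS.2065.1.S1_at had 8.05, 8.90 and 7.56 with T0901317 and 7.90, 8.74 and 7.77 with DMSO. In each group replicate 2 stood highest, and the treated arrays lay on both sides of their partners. Its pair differences were 0.15, 0.16 and -0.21, with a mean of 0.04 ± 0.21 (SD, n = 3 pairs).

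MmuSTS.2065.1.S1_x_at had 8.35, 9.21 and 7.96 with T0901317 and 8.33, 8.96 and 8.41 with DMSO, a mean difference of -0.06 ± 0.36 (SD, n = 3 pairs). MmuSTS.2065.1.S1_s_at had 6.47, 7.23 and 6.30 with T0901317 and 6.61, 7.00 and 6.60 with DMSO, a mean difference of -0.07 ± 0.27 (SD, n = 3 pairs). These 3 probe sets share a number and the annotation gives them the same source accession, so they share a target and are not independent readings. In Affymetrix naming the ending _x_at marks probes that can match other sequences, and _s_at marks probes shared by several transcripts.

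MmugDNA.23693.1.S1_at does not carry that accession, and it was also flat for PYGL. It had 6.94, 7.85 and 7.25 with T0901317 and 7.15, 7.78 and 7.16 with DMSO, a mean difference of -0.02 ± 0.17 (SD, n = 3 pairs). Among themselves the 4 flat PYGL probe sets had correlations of 0.84 to 0.99 over the 6 arrays. Against the 2 rising ones their correlations were -0.19 to 0.39. The 6 arrays include the treatment difference that named the groups, so low values between groups are partly built in.

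**Figure D1:**
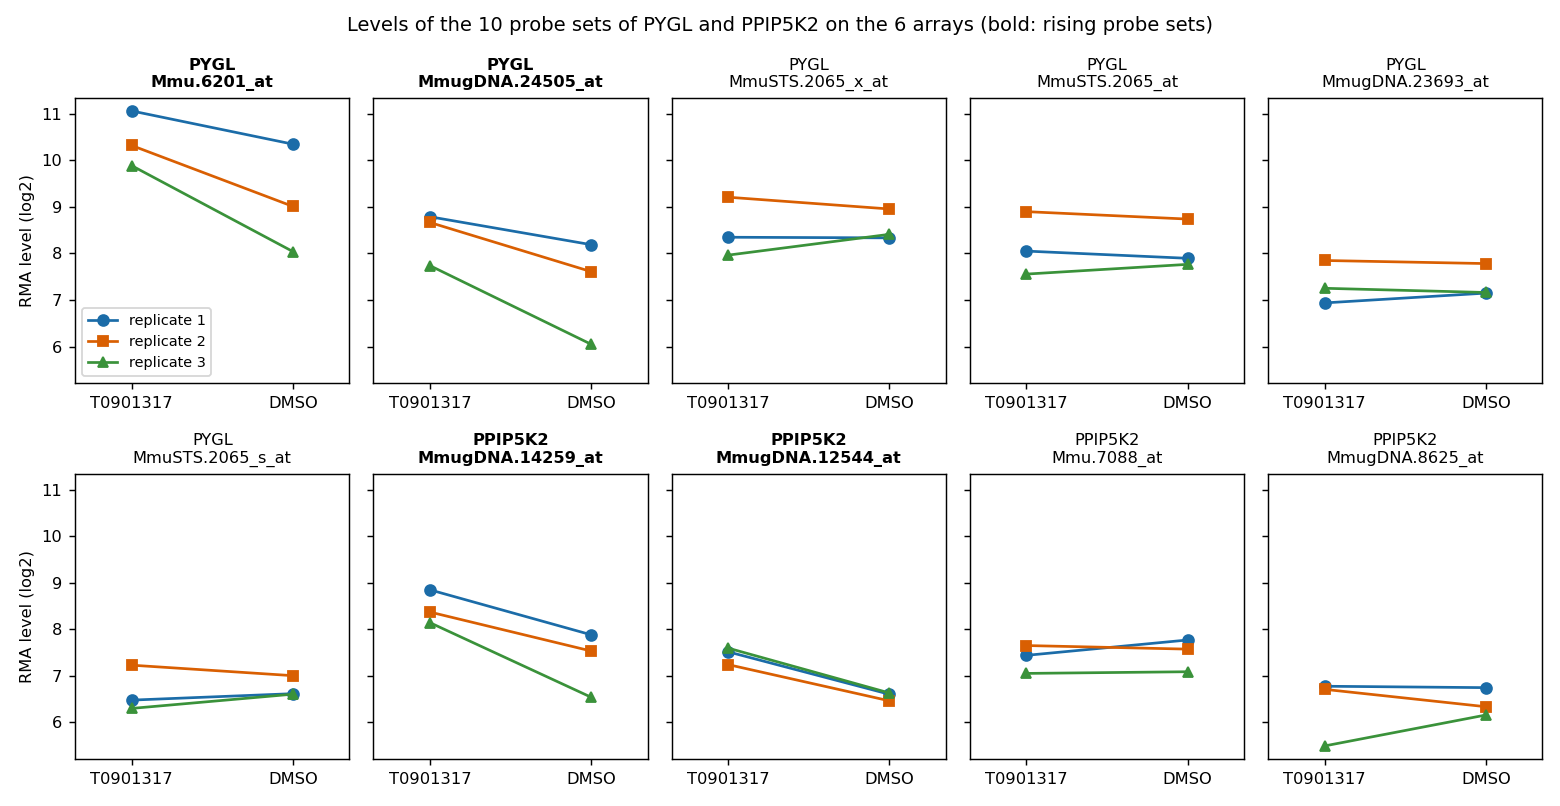
RMA level (log2, vertical axis) of each PYGL and PPIP5K2 probe set with T0901317 (left of each panel) and DMSO (right); lines join the 2 arrays of a replicate, and bold titles mark the rising probe sets (1.S1 is left out of the names). The 4 bold panels have all 3 lines higher on the T0901317 side, while in each of the other 6 panels some lines are higher and some lower on that side.

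PPIP5K2 divided evenly. MmugDNA.14259.1.S1_at, its representative, had 8.85, 8.37 and 8.14 with T0901317 and 7.88, 7.53 and 6.54 with DMSO in replicates 1, 2 and 3. Every treated array was above every vehicle array. The pair differences were 0.97, 0.84 and 1.60, with a mean of 1.14 ± 0.41 (SD, n = 3 pairs; 2.20-fold).

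MmugDNA.12544.1.S1_at, the other rising probe set of PPIP5K2, had the smallest SD of pair differences of the 10. It had 7.51, 7.24 and 7.59 with T0901317 and 6.60, 6.46 and 6.63 with DMSO, with no overlap between the groups. Its pair differences of 0.91, 0.78 and 0.96 averaged 0.89 ± 0.10 (SD, n = 3 pairs; 1.85-fold). Of all probe sets tested, 1.38% had every T0901317 array above every DMSO array. Both of these PPIP5K2 probe sets and 0 of the 6 PYGL probe sets were among them.

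The remaining PPIP5K2 probe sets were Mmu.7088.1.S1_at and MmugDNA.8625.1.S1_at. Mmu.7088.1.S1_at had 7.44, 7.65 and 7.05 with T0901317 and 7.77, 7.57 and 7.08 with DMSO, a mean difference of -0.10 ± 0.21 (SD, n = 3 pairs). MmugDNA.8625.1.S1_at had 6.77, 6.71 and 5.49 with T0901317 and 6.74, 6.33 and 6.16 with DMSO. Its pair differences of 0.03, 0.37 and -0.67 ran both ways, and their mean of -0.09 was far inside their SD of 0.53. Over the 6 arrays these 2 probe sets had a correlation of 0.82, the 2 rising ones of 0.73, and pairs of 1 rising and 1 other of -0.34 to 0.36. As for PYGL, the correlations include the treatment difference that named the groups, so low values between groups are partly built in.

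In the limma fit over all probe sets, 4 of the 10 members were called higher at an adjusted p under 0.05 (Benjamini-Hochberg over all probe sets), where 0.0606% of all probe sets were higher, 0.0246% lower and 0.0853% either way; since the genes were chosen by this contrast, nothing is read from that count. In that fit 32 probe sets were higher and 13 lower, against 22 and 5 after quantile normalization and 24 and 3 after cyclic loess. The split among the members left a gap, with 0.89 as the smallest rising change and 0.04 as the largest of the others. Without replicate 3 the gap was narrower, with 0.83 for rising MmugDNA.24505 against 0.20 for flat MmugDNA.8625. Averaging all probe sets of a gene gave 0.38 ± 0.09 for PYGL and 0.46 ± 0.09 for PPIP5K2 (limma's SE, log2 difference), well below their rising probe sets.

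**Figure D2:**
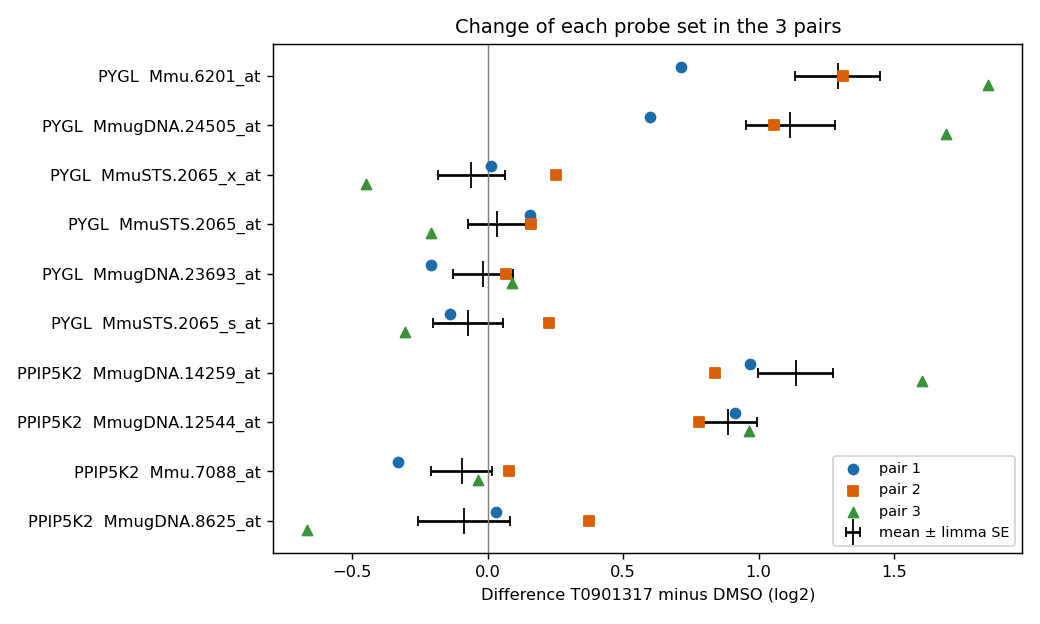
Difference T0901317 minus DMSO (log2, horizontal axis) of the 10 probe sets in pairs 1 to 3 (coloured symbols), with the mean and limma's SE in black. Means of the 4 rising probe sets run from 0.89 to 1.29, with every symbol above 0; means of the other 6 run from -0.10 to 0.04.

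Pair 3 had the largest difference in all 4 rising probe sets. The same held for 22 of the 32 probe sets that were called higher, or 68.8%, and for 38.8% of all probe sets tested. The mean 3' minus 5' difference of the actin, GAPDH and EF1a controls, a measure of RNA quality, also moved most in pair 3, where it was 0.59 lower in the T0901317 array than in the DMSO array; the difference was 0.16 in pair 1 and -0.08 in pair 2. Fitted with that control difference as a covariate, the changes were 1.05 and 0.88 for the 2 rising PYGL probe sets, Mmu.6201 and MmugDNA.24505, and 0.98 and 0.87 for those of PPIP5K2, MmugDNA.14259 and MmugDNA.12544. Without replicate 3 they were 1.01, 0.83, 0.90 and 0.85 in the same order.

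Most genes with a called probe set also had one that did not pass. Of the 6375 genes with more than 1 probe set, 14 had at least 1 probe set past the threshold, and 13 of these had at least 1 that was not. The exception was MYLIP, a ubiquitin ligase of lipoprotein receptors, with 3 of 3. The width from a gene's lowest to its highest change was 1.36 in PYGL, the 2nd widest of the 6375, and 1.23 in PPIP5K2, the 5th widest. The median width over these genes was 0.13, the 95th percentile 0.38 and the widest 1.46, in the chemokine CCL8. A split in calls and a wide span did not always go together. MYLIP had a width of 1.34, the 3rd widest, with all 3 probe sets past the threshold, whereas FDFT1, an enzyme of sterol synthesis, had a width of 0.036 with 1 of 2 past it. These ranks use the contrast that chose the genes and are a description. A width can only grow as probe sets are added, and the ranks are not adjusted for their number, 6 in PYGL and 4 in PPIP5K2.

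The IDs did not separate the rising from the flat probe sets. Names starting MmugDNA held 3 rising and 2 other probe sets, names starting Mmu held 1 and 1, and names starting MmuSTS held 0 and 3, the latter from 1 target. On the whole array 31 of 43942 MmugDNA, 1 of 2060 Mmu and 13 of 4943 MmuSTS probe sets passed in the treatment fit. These counts include the rising members. The probe and target sequences and their places along the transcripts were not analysed here.

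The replicates gave a readout of the same probe sets that the treatment contrast did not use. In this balanced design the difference between replicates, taken as the mean of both arrays of a pair, is estimated apart from the treatment difference. Both tests use the residual variance of the same fit, so the p-values of the members are not wholly free of their choice by treatment. By limma's F test of the replicate terms, 40.2% of all probe sets differed between replicates at an adjusted p under 0.05. In a fit of only the 37637 probe sets above the dim reference, where all members lie, 18621 did. Among the members 9 of 10 differed, all 6 of PYGL, of which 3 share a target, and 3 of 4 of PPIP5K2.

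The rising and the flat PYGL probe sets had different replicate patterns. Mmu.6201.1.S1_at had pair means of 10.71, 9.67 and 8.96 in replicates 1, 2 and 3 (F test adjusted p = 0.000109, limma), and MmugDNA.24505.1.S1_at had 8.49, 8.14 and 6.89 (adjusted p = 0.000203). In both, replicate 1 was highest and replicate 3 lowest. In all 4 flat probe sets, of which 3 share a target, replicate 2 was highest, above replicate 1 by 0.57 to 0.85 (adjusted p from 0.000104 to 0.0107, limma). How often replicate 2 was highest over all probe sets was not counted. Without replicate 2 none of these 4 passed, with adjusted p-values of 0.15 to 0.71, whereas both rising probe sets passed in all 9 alternative fits.

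PPIP5K2 showed another arrangement. MmugDNA.14259.1.S1_at had pair means of 8.36, 7.95 and 7.34 (adjusted p = 0.0019, limma F test), and the flat MmugDNA.8625.1.S1_at had 6.76, 6.52 and 5.82 (adjusted p = 0.0099). Flat Mmu.7088.1.S1_at had 7.60, 7.61 and 7.07 (adjusted p = 0.012). In these 3 probe sets, rising or not, replicate 3 was lowest. Without replicate 3 the 2 flat ones did not pass, at adjusted p-values of 0.37 for MmugDNA.8625.1.S1_at and 0.99 for Mmu.7088.1.S1_at. MmugDNA.12544.1.S1_at had 7.06, 6.85 and 7.11 and did not pass (adjusted p = 0.25). Over both genes replicate 3 was lowest in 8 of the 10 probe sets, of which 3 share a target. How often it was lowest over all probe sets was not counted, so nothing is read from that number. The arrays of replicate 3 had the highest mean 3' minus 5' control difference. It was 1.30 with T0901317 and 1.89 with DMSO, against 0.69 to 1.00 on the other arrays. The part of RNA quality in the replicate patterns was not tested beyond a fit with that difference as a covariate.

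**Figure D3:**
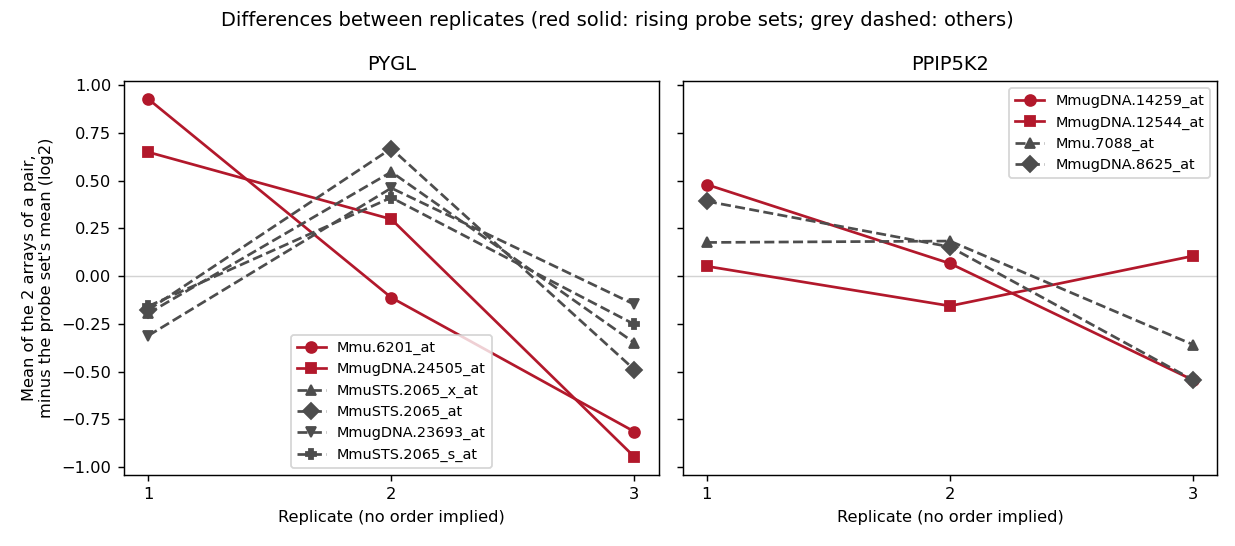
Mean of the 2 arrays of each replicate minus the probe set's own mean (log2, vertical axis) for replicates 1 to 3 (horizontal axis), in PYGL (left) and PPIP5K2 (right); red solid lines are rising and grey dashed lines the other probe sets. Both red PYGL lines are highest in replicate 1 and the 4 grey ones, 3 of them from 1 target, in replicate 2. In PPIP5K2, 3 of 4 lines are lowest in replicate 3.

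To test whether the patterns differed, each probe set was set against its gene's representative within each array and the replicate terms were tested again, a test added after seeing the data. It was run on the 10824 probe sets of named genes that are not representatives, of which 34.6% differed in replicate pattern from their representative (adjusted p under 0.05). All 5 of the PYGL probe sets did, against Mmu.6201.1.S1_at. These are not separate results, since all 5 are set against the same values and 3 of them share a target. For the 4 flat ones the level relative to the representative was higher than in replicate 1 by 1.61 to 1.89 in replicate 2 and by 1.43 to 1.91 in replicate 3 (adjusted p from 0.000525 to 0.0057, limma F test). For rising MmugDNA.24505.1.S1_at it was higher by 0.69 and 0.15 (adjusted p = 0.020).

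These calls rest on single replicates. Without replicate 1 the 4 flat PYGL probe sets had adjusted p-values of 0.15 to 0.93, and without replicate 2 MmugDNA.24505.1.S1_at had 0.72. Of the PPIP5K2 probe sets 1 of 3 differed from MmugDNA.14259.1.S1_at, namely rising MmugDNA.12544.1.S1_at (adjusted p = 0.0064, and 0.36 without replicate 3). Flat MmugDNA.8625.1.S1_at and Mmu.7088.1.S1_at did not pass against it (adjusted p = 0.92 and 0.18).

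Markers of cell types also differed between replicates. The median level of 6 measured luteal steroidogenic markers of 9 listed was 7.60, 6.98 and 6.97 with T0901317 and 7.96, 7.08 and 7.34 with DMSO in replicates 1, 2 and 3. By pair means 3 of the 6 were highest in replicate 1, 2 in replicate 2 and 1 in replicate 3. For 6 macrophage markers of 7 it was 8.91, 10.02 and 9.68 with T0901317 and 9.20, 9.90 and 9.77 with DMSO, and 5 of the 6 were lowest in replicate 1. For 4 fibroblast markers of 4 it was 8.54, 8.99 and 7.70 with T0901317 and 8.74, 9.28 and 7.60 with DMSO, and all 4 were highest in replicate 2.

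The 3 neutrophil markers measured of 4 had medians of 5.16, 5.80 and 6.23 with T0901317 and 5.33, 5.70 and 6.94 with DMSO, and all 3 were highest in replicate 3. The 4 endothelial markers of 4 had 7.57, 7.92 and 7.80 with T0901317 and 7.31, 7.74 and 7.31 with DMSO. Like the fibroblast markers, all 4 were highest in replicate 2. The only liver marker measured of 3, APOA1, had 7.98, 7.95 and 8.50 with T0901317 and 8.30, 7.96 and 8.44 with DMSO. Of the 24 markers 19 differed between replicates, where 40.2% of all probe sets did, and 18621 of the 37637 above the dim reference. For treatment 0 of the 24 passed by limma and 4 had an unadjusted p under 0.05, as did 3.73% of named genes. These were endothelial CDH5, with a change of 0.39, neutrophil S100A9, with -0.56, and macrophage TYROBP and CSF1R, with -0.29 and -0.25. All marker lists except that of luteal cells, where PGR averaged 4.58, lay above the dim reference. The part of cell makeup in the replicate patterns of PYGL and PPIP5K2 was not tested.

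Genes around PYGL in glycogen metabolism did not pass. Of 21 measured, 0 rose and 0 fell in limma's fit (1 at an unadjusted p under 0.05), where 0.177% of named genes passed by their representatives and 3.73% had an unadjusted p under 0.05. Their median change was -0.05, with 5 above 0 and 16 below, beside a median of 0.0044 over all probe sets and -0.02 over named genes. The changes ran from -0.21 to 0.10, and 6 of the 21 averaged below the dim reference.

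In synthesis, UGP2, which makes the UDP-glucose that feeds glycogen, had 11.14, 11.36 and 11.05 with T0901317 and 11.30, 11.41 and 11.42 with DMSO. All 3 pairs were below 0, by a mean of -0.19 ± 0.08 (limma's SE; adjusted p = 1.00), and its second probe set had -0.27 ± 0.08 (adjusted p = 0.93). GYG1, the glycogenin that starts a glycogen chain, had the highest change of the list, 0.10 ± 0.09. GYS1, the glycogen synthase of most tissues, had -0.17 ± 0.15 at a mean level of 4.58, below the dim reference.

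In breakdown, GAA, the lysosomal glucosidase, had 0.06 ± 0.11. PHKA1, PHKA2, PHKB and PHKG1, subunits of the phosphorylase kinase that activates PYGL, had changes between -0.11 and -0.01, of which PHKG1 was dim at a mean of 4.34. The paralogs PYGB and PYGM, the brain and muscle phosphorylases, have no probe set under their names and were not analysed here. PPP1R3D, which ties protein phosphatase to glycogen, had the largest change of the list, -0.21 ± 0.13 (adjusted p = 1.00), with levels of 4.92, 6.12 and 4.75 with T0901317 and 5.35, 6.29 and 4.79 with DMSO.

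The 21 measured genes of inositol phosphate metabolism gave the same count around PPIP5K2. In limma's fit 0 rose and 0 fell, with 0 at an unadjusted p under 0.05, and the median change was -0.05 with 5 above 0 and 16 below. The paralog PPIP5K1 had 5.14, 5.03 and 5.12 with T0901317 and 5.48, 5.24 and 5.18 with DMSO. All treated arrays were below all vehicle arrays, as in 1.07% of probe sets, with a mean of -0.20 ± 0.13 (adjusted p = 1.00, limma), but its other probe sets had 0.13 and -0.28.

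The IP6 kinases that make the substrate of PPIP5K2, IP6K1 and IP6K2, had 0.08 ± 0.09 and -0.05 ± 0.13. Of the phosphatases that remove pyrophosphate groups, NUDT3 had -0.05, NUDT4 0.0019 and NUDT10 -0.01, the latter at a mean of 3.93 and so below the dim reference. The largest changes in the list were those of INPP4A, a phosphoinositide phosphatase, at -0.24 ± 0.11, and ITPKA, an inositol trisphosphate kinase, at -0.23 ± 0.16 (adjusted p = 1.00 for both). INPP4A had 7 probe sets with changes between -0.26 and 0.14, none past the threshold, and ITPKA ran both ways over the pairs, with 0.25, -0.34 and -0.59. XPR1, a phosphate exporter that senses inositol pyrophosphates, had 11.10, 11.19 and 11.16 with T0901317 and 11.09, 11.06 and 11.30 with DMSO, which overlap.

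**Figure D4:**
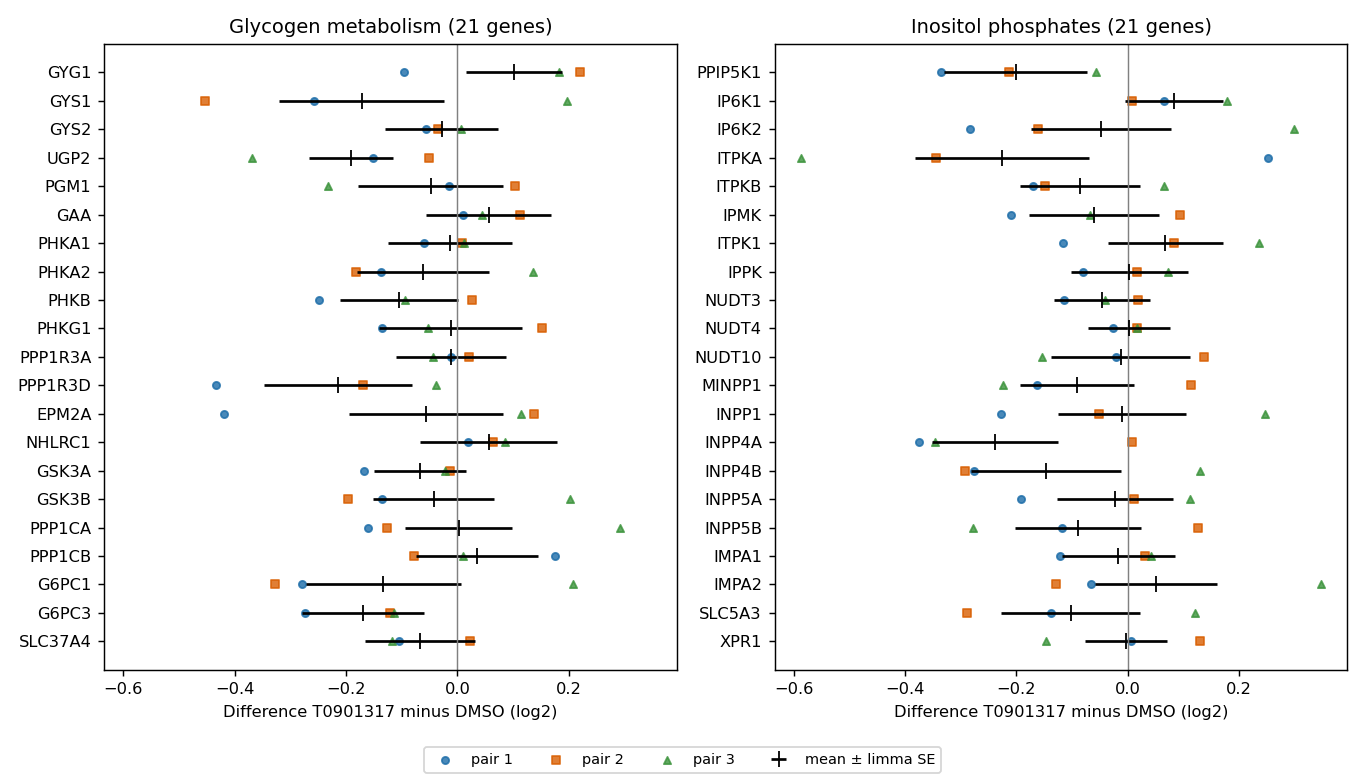
Difference T0901317 minus DMSO (log2, horizontal axis) of the measured glycogen (left) and inositol phosphate (right) genes, each by its representative probe set; coloured symbols are pairs 1 to 3 and black is the mean with limma's SE. All 42 means lie between -0.24 and 0.10.

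No probe set of the genes that flank PYGL and PPIP5K2 in the supplied gene table passed the threshold. ABHD12B and TRIM9, on either side of PYGL, were below the dim reference, with mean levels of 3.02 to 3.50 over their 3 probe sets. Of these, an ABHD12B probe set had the largest change, 0.33 (3.21, 2.86 and 3.50 with T0901317 and 2.72, 2.74 and 3.12 with DMSO), at a level where signal is not told from background. GIN1, beside PPIP5K2, had -0.10 on a probe set below the dim reference and -0.01 on another, and MACIR, on the far side, had 0.01.

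The named genes most like each representative were found by Pearson r over the 6 arrays, among 3984 representatives with an SD of at least 0.3 and a mean above the dim reference. These are descriptions of 6 points that share libraries and the treatment difference. For PYGL they were CDCA7L (r = 0.99), PGAP4 (0.99), RNF145 (0.97), FASN (0.95) and TMEM135 (0.92). For PPIP5K2 they were RNF145 (0.99), TMEM135 (0.99), NTN4 (0.98), CDCA7L (0.93) and LPCAT3 (0.92).

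Among them FASN builds palmitate, LPCAT3 remodels phospholipids and RNF145 is a ubiquitin ligase of the endoplasmic reticulum. RNF145 had 11.90, 11.74 and 11.55 with T0901317 and 11.52, 11.33 and 10.94 with DMSO, the order of PPIP5K2 with a smaller spread. These are levels of its representative. RNF145 has 2 probe sets, of which 1 passed the threshold, with a width of 0.49 between their changes. TMEM135, a protein tied to peroxisomes, had 8.45, 8.19 and 7.90 with T0901317 and 7.38, 7.17 and 5.94 with DMSO. In RNF145 and TMEM135 replicate 1 was highest and replicate 3 lowest within each group, as in the PPIP5K2 representative. Both were picked for their correlation with that probe set over the same arrays, so the shared order is not a separate result.

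**Figure D5:**
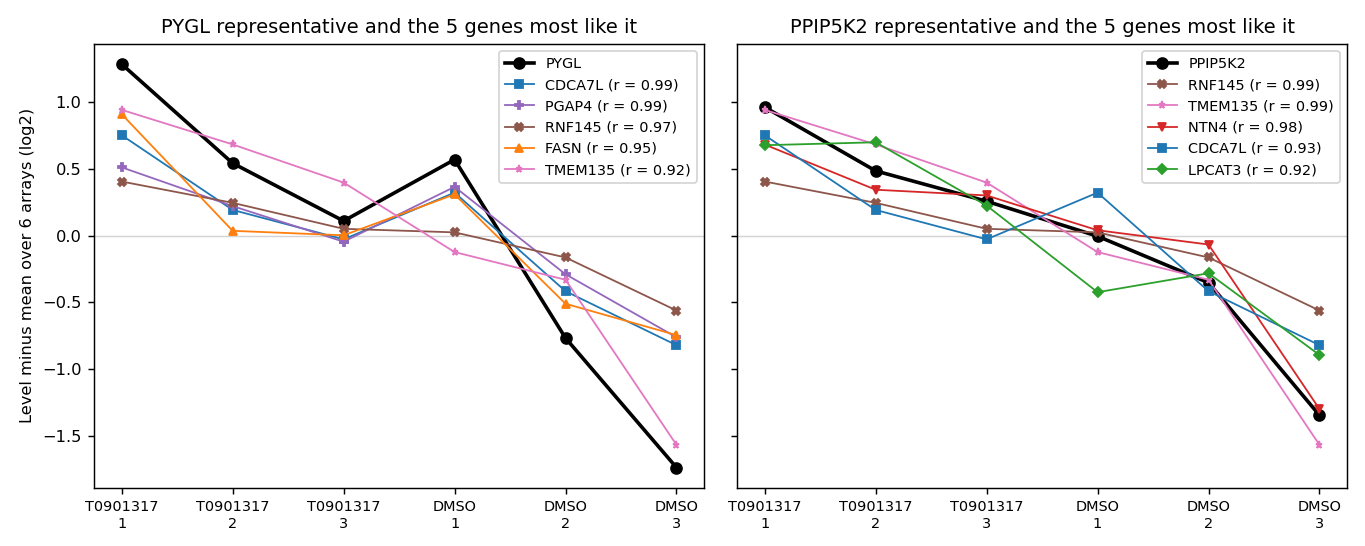
Level minus the mean over 6 arrays (log2, vertical axis) on each array (horizontal axis, T0901317 then DMSO, replicates 1 to 3), for the representative of PYGL (left) or PPIP5K2 (right, both black) and the 5 named genes with the highest Pearson r. TMEM135 tracks PPIP5K2 closely (r = 0.99), while the PYGL line has the widest span in its panel.

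The SD over the arrays was lower with T0901317 than with DMSO in 3 of the 4 rising probe sets. SDs over the arrays were 0.59 with T0901317 and 1.16 with DMSO for Mmu.6201.1.S1_at, 0.57 and 1.11 for MmugDNA.24505.1.S1_at, and 0.36 and 0.70 for MmugDNA.14259.1.S1_at. MmugDNA.12544.1.S1_at was the exception, with 0.19 with T0901317 and 0.09 with DMSO. The SD was lower with T0901317 in 71.9% of the probe sets called higher and in 58.5% of all probe sets, so nothing is read from the count of members. In the 3 probe sets DMSO replicate 3 was the lowest array. That array also had the highest mean 3' minus 5' control difference, 1.89. The part of RNA quality in these SDs was not tested.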

How the data were processed

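The deposited values are log2 levels of 52865 probe sets on 6 arrays, made with RMA per the submitters' processing notes; its version and the array build are not given in the sources used here. Control probe sets (99) were left out. Genes came from the platform annotation, with symbols updated by gene number through the supplied gene table (T2T-MMU8v2.0), used for names and neighbours only.

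T0901317 minus DMSO was fitted with limma 3.58.1 in R 4.3.3, blocked on replicate number, using eBayes with a variance trend; p-values are two-sided, Benjamini-Hochberg adjusted over 52766 probe sets, threshold 0.05. The pairing comes from the design text; arrays of the same number had deviations correlated at 0.66, 0.81 and 0.83. Replicate terms were tested by limma's F test. The test against each gene's representative was fitted without a variance trend and adjusted over its 10824 probe sets. The fits were tested on simulated data. Scan dates were not used here, so no batch was tested. The number of arrays limits the precision. Members and lists were chosen with earlier results of these data known. Named genes are all members, list genes past the threshold, the 2 largest changes of each list, paralogs, nearest neighbours and the 5 most alike genes; other list genes, and MYLIP, CCL8 and STAR, were chosen after their values were seen. Alternatives covered the block, normalization, dim probe sets, variance model, RNA quality and each replicate.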

Additional observations from a re-analysis of the deposited data

How the results depend on the processing

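Each rising change kept its direction in all 10 alternative fits, though most of these could not turn it. Dropping the block or the dim probe sets, or changing the variance model, leaves the estimate itself as it was. Fits without 1 replicate average pair differences that were all above 0. Without the block limma's SE was 0.58 for Mmu.6201, 0.56 for MmugDNA.24505, 0.37 for MmugDNA.14259 and 0.17 for MmugDNA.12544. Over the fits the rising PYGL changes ran from 1.01 to 1.58 for Mmu.6201 and 0.83 to 1.37 for MmugDNA.24505. Those of PPIP5K2 ran from 0.90 to 1.29 for MmugDNA.14259 and 0.85 to 0.94 for MmugDNA.12544. Flat probe sets, with changes near 0, ran on both sides of it, from -0.32 to 0.20 for MmugDNA.8625, -0.18 to 0.02 for Mmu.7088, -0.08 to 0.08 for MmugDNA.23693, and -0.03 to 0.16, -0.22 to 0.04 and -0.22 to 0.13 for the _at, _s_at and _x_at forms of MmuSTS.2065. The count of 45 probe sets past the threshold was 0 without the replicate block (143 at an unadjusted p under 0.05), 27 after quantile normalization, 27 after cyclic loess, 11 without a variance trend, 206 with the 3' minus 5' covariate, and 35 to 328 without 1 replicate. The 21188 probe sets that differed between replicates were 10253 with the covariate and 9045 to 21815 without 1 replicate; the 3741 that differed from their representative were 1733 to 3307 without 1 replicate. Flat Mmu.7088 lost its replicate call after quantile normalization (adjusted p = 0.070), cyclic loess (0.057) and with the covariate (0.57). The cause was not tested, except that fits without a replicate have fewer arrays. List counts stayed at 0 in all 11 alternatives, with medians of -0.09 to -0.02 for glycogen and -0.06 to -0.0050 for inositol phosphates.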
